A study of Mus musculus with 35 samples.

Results

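The regions described here are stretches of acetylated histone H4 (H4ac) that no list from resting macrophages held and that the lists held at every sampled time after lipopolysaccharide (LPS). They were found by joining, across the 8 H4ac lists, all regions up to 10 kb wide that overlapped. A joined region was a member if neither unstimulated list held it, if at least 1 list held it at each of 60, 120 and 240 min of LPS, and if at least 4 of the 6 LPS lists held it. There were 578 members among 24406 joined regions, or 2.37%. The members were thus chosen by the H4ac lists themselves, so their H4ac values are given as a description, with no test.

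The cells were primary macrophages cultured from bone marrow of wild type female C57BL/6 mice aged 8 to 12 weeks, either left unstimulated or given LPS. Chromatin immunoprecipitation with sequencing gave 35 libraries, and 1 list of genomic regions with a score was deposited for each. H4ac had 2 libraries each at 0, 60, 120 and 240 min. Besides H4ac, the libraries used were 7 for p50 (3 unstimulated, 4 at 60 min), 5 for p65 (1 unstimulated, 2 at 60 min, 2 at 120 min), 3 for ATF3 (all at 240 min) and 7 for RNA polymerase II (Pol II; 1 unstimulated, 2 at 60 min, 1 at 120 min, 2 at 240 min, 1 at 360 min). Histone H3 trimethylated at lysine 27 (H3K27me3) had 5 libraries: 1 unstimulated, 1 each at 120, 240 and 480 min, and 1 labelled 480 min whose title gives 60 min of LPS and a delay of 7 h. Libraries of one group are told apart by a letter, A to D or X, and nothing says that letters stand for separate animals or cultures. P-values therefore speak only of how these libraries vary, and that variation may be technical. Titles also carry a date, with no word on what it marks. Both p50 libraries of a letter share it, as do letters A and C, and so do all 4 H4ac libraries of letter B and 3 of letter A. No other Pol II library shares the date of the unstimulated one, so date and LPS cannot be told apart for Pol II. The date of the 240 min Pol II library of letter A is likewise unshared among Pol II libraries.

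Acetylation of the tail of histone H4 loosens nucleosome packing and is found at active promoters and enhancers, where bromodomain proteins bind it. LPS, from the outer membrane of Gram-negative bacteria, activates macrophages through Toll-like receptor 4 and releases NF-κB into the nucleus. The p65 subunit of NF-κB carries an activation domain and p50 does not. ATF3 is a stress-induced factor known to restrain inflammatory genes, Pol II transcribes protein-coding genes, and H3K27me3 is laid down by Polycomb complexes at silent genes.

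The H4ac lists held 15256 to 28522 regions and the lists of the other targets 255 to 7728. Read depth is unknown for every library, so a region absent from a list was not listed there, which does not show that it lacked the mark. In each LPS time the letter A list was longer than the letter B list, and it held more of the members. At 60 min letter A held 533 members and letter B 410. At 120 min the numbers were 538 and 483, and at 240 min they were 536 and 482. The 60 min list of letter B held the fewest members of the 6.

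Members ranged from those in every LPS list to those at the limit. All 6 LPS lists held 224 members, 5 lists held 222 and 4 lists held 132. The most frequent incomplete pattern, in 100 members, was absence from the 60 min list of letter B alone. Both lists held the region in 365 members at 60 min, in 443 at 120 min and in 440 at 240 min. Where a list held a member, its regions covered 61.1% to 69.2% of the member's width on average.

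Within a list, each member was ranked by its best-scored region, as a percentile of the scores of that list. The median percentile of the members held was 54.2 in letter A and 57.4 in letter B at 60 min. At 120 min it was 66.9 and 68.2, and at 240 min it was 61.1 and 65.4. In both letters the median was lowest at 60 min and highest at 120 min. Over every joined region a list held, the median lay between 60.3 and 63.6 in the 6 LPS lists, so the members stood below it in both 60 min lists and above it in both 120 min lists. Regions held by all 8 H4ac lists had medians of 70.1 to 84.4. Of the 466 members in all 3 LPS lists of letter A, 130 had their highest percentile at 60 min, 182 at 120 min and 154 at 240 min. Of the 300 members in all 3 LPS lists of letter B, 84 had it at 60 min, 107 at 120 min and 109 at 240 min. No single time held the highest rank for most members.

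**Figure D1:**
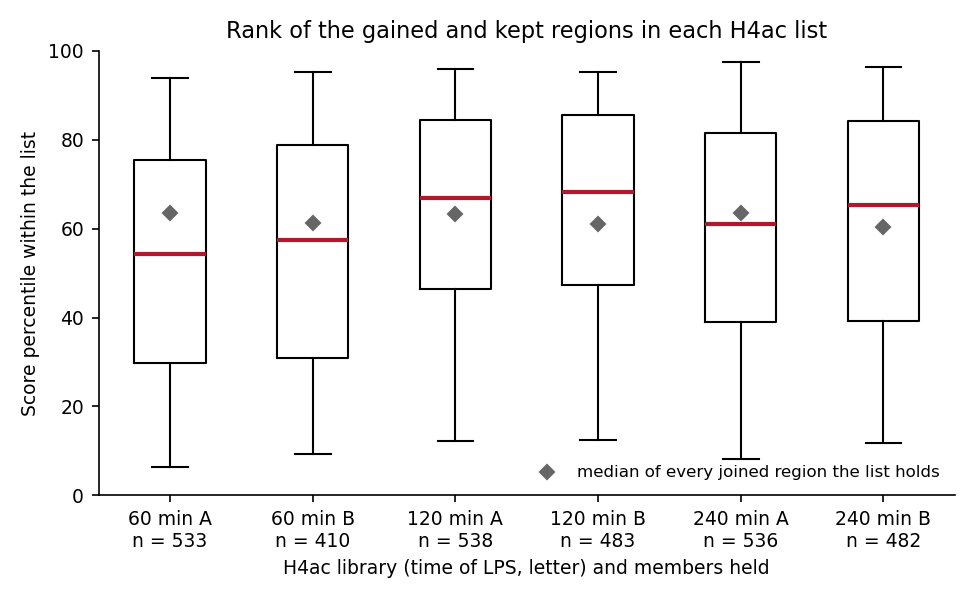
Score percentile of the members in each of the 6 LPS H4ac lists, within that list (vertical axis, 0 to 100). Boxes span the quartiles with the median in red, whiskers run from the 5th to the 95th percentile of the members, and grey diamonds mark the median of every joined region the list held. Member medians run from 54.2 to 68.2 and are below the diamond in both 60 min lists.

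Members at the limit were wider and better ranked than the regions just outside it on the LPS side. The 132 members in exactly 4 LPS lists had a median width of 3600 bp and a median score percentile of 41.1. The 89 regions in no unstimulated list and in 3 LPS lists, 1 at each time, had 1820 bp and 26.4. A further 1096 regions met the LPS conditions and were held by 1 unstimulated list, in 981 cases that of letter A. They had a median width of 2660 bp and a median percentile of 50.7, which is above that of the members at the limit. The unstimulated list of letter A was the longest of the 8, and without it the same rule gave 1579 members.

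Members were wide. Their median width was 4060 bp, with quartiles of 2550 and 6935 bp and a range of 440 to 22510 bp, and together they covered 3.00 Mb. The median was 2250 bp over all joined regions and 2790 bp over the 5710 regions in all 8 lists. A wide region is more easily touched by a region of another target. The share touched within the central 500 bp is therefore given below beside the share touched anywhere, for Pol II, p50, ATF3 and H3K27me3.

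Most members lay within 50 kb of chromatin that was listed as acetylated at rest. The nearest unstimulated H4ac region up to 10 kb wide lay a median of 19270 bp away, within 10 kb for 140 members and within 50 kb for 463. Moreover, the deposited lists are nested, with wide regions over narrow ones, and 203 members (35.1%) lay under an unstimulated region of 10 to 100 kb. Over all joined regions that share was 46.4%. A region over 100 kb of either unstimulated list lay over 53.1% of members, close to the 54.0% of all joined regions. The 375 members not among the 203 were overlapped by no unstimulated region up to 100 kb, and 174 members by none of any width. No share over all joined regions is given for the gaps, the 174 or the 375. Results for Pol II and p50 are therefore also given for these 375, a split chosen after the values had been seen.

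Members were found on every autosome and on X. Their share of a chromosome's joined regions ran from 1.34% on chromosome 9 (16 members) to 3.52% on chromosome 16 (32 members), and 143 members (24.7%) had another member within 50 kb. These formed 64 groups of at least 2 and 14 of at least 3, with no matching share for other regions given here. The group of 4 was on chromosome 10 (chr10:36936821-37049830, mm9), and 2 of its 4 members were in all 6 LPS lists.

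Some of the 12 members with the highest mean percentile over the 6 LPS lists are described next. High ranks at each time follow from that choice. The first was an 18050 bp region at chr1:58767711-58785760. Its percentile was 99.6 in letter A and 98.5 in letter B at 60 min, 99.6 and 99.5 at 120 min, and 99.4 and 99.4 at 240 min. It also lay under an unstimulated region of 10 to 100 kb, and all 7 Pol II lists touched it, so in the wider unstimulated regions and in Pol II it was already listed at rest. An unstimulated region of that width and Pol II at rest were also listed at the second in rank, chr1:74441911-74443270. Among the 12, both were listed as well at chr18:12278641-12292270, chr7:31204091-31208220, chr4:124792121-124805110 and chr5:53929511-53939820. A 5290 bp region at chr14:103411231-103416520 had percentiles of 99.8 and 99.0 at 60 min, 99.1 and 98.9 at 120 min, and 94.7 and 96.7 at 240 min. No unstimulated region of 10 to 100 kb lay over it, all 6 LPS Pol II lists touched it and the unstimulated one did not. This member lay 2890 bp from the nearest unstimulated H4ac region up to 10 kb, and H3K27me3 was listed at it at 120 min only. A 7480 bp region at chr1:154422851-154430330 had percentiles of 96.7 and 97.1 at 60 min, 98.1 and 98.8 at 120 min, and 98.3 and 98.4 at 240 min. It lay outside unstimulated regions of 10 to 100 kb, and Pol II was listed there in 5 of 6 LPS lists and not at rest.

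Among the 12 members so ranked, the region at chr2:24196311-24204140 stood at percentiles of 81.2 and 93.0 at 60 min, 93.5 and 97.4 at 120 min, and 98.7 and 99.1 at 240 min, higher at each later time in both letters. All 6 LPS Pol II lists touched it, and the unstimulated list did not. It lay under an unstimulated H4ac region of 10 to 100 kb. Letters could also disagree, as at chr9:5307841-5312430, where the 60 min percentile was 31.5 in letter A and 85.8 in letter B. Genes and sequences at these positions were not analysed here.

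Pol II was listed at fewer members than at joined regions in general before LPS, and at more of them after it. The unstimulated list touched 74 members (12.8%) against 24.3% of all joined regions. With LPS, letter A touched 19.7% of members at 60 min, 18.9% at 120 min, 22.5% at 240 min and 12.5% at 360 min. Letter B touched 24.7% at 60 min and 31.5% at 240 min. All LPS lists but that of 360 min, the shortest, lay above the unstimulated one.

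Over all joined regions the LPS lists touched 17.9%, 14.4%, 16.5% and 9.54% in letter A at those 4 times, and 18.9% and 20.2% in letter B. All 6 values were below the 24.3% of the unstimulated list. The members' share minus the share of all joined regions was -11.5 percentage points at rest. It was 1.81 points at 60 min in letter A and 5.81 in letter B, 4.45 at 120 min, 6.00 and 11.3 at 240 min, and 2.91 at 360 min. The sign thus differed between the unstimulated library and each of the 6 LPS libraries.

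The mean share with LPS was 21.6% ± 6.37 (SD, n = 6), which was 8.82 points above the single unstimulated value, and the excess over all joined regions was 16.9 points higher. No test was run, since 1 library against 6 cannot give an exact p under 0.143. In the central 500 bp the shares were 10.4% at rest and 9.34% to 28.7% with LPS, and the excess was -9.61 points at rest and 2.40 to 11.0 with LPS. The direction depended on the H4ac widths admitted. With H4ac regions up to 1 kb in place of 10 kb, the rule gave 685 members, the Pol II share fell by 16.8 points with LPS and the excess fell by 9.45. With Pol II regions up to 1 kb in place of 100 kb, the members' share was 0.980 points higher with LPS and the excess 7.26. The unstimulated list, with 7436 regions, was longer than 5 of the 6 LPS lists, and with lists cut to equal length by score, an alternative chosen after seeing the data, the excess was 6.49 points higher with LPS.

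**Figure D2:**
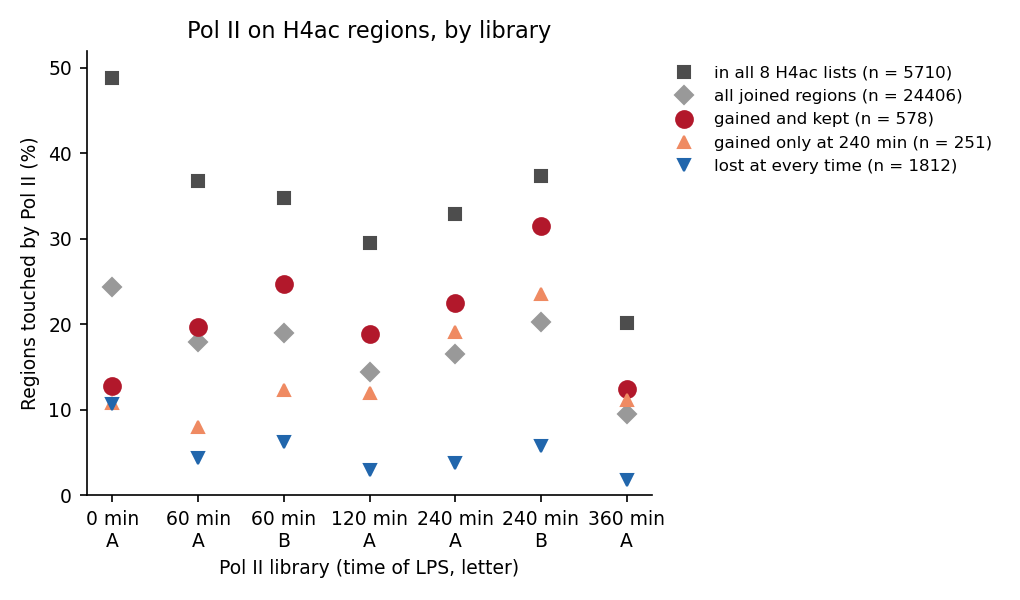
Percent of H4ac regions touched by Pol II (vertical axis) in each of the 7 Pol II libraries, by time of LPS and letter (horizontal axis), for the members and 4 other sets of joined regions. Members (red circles) lie below all joined regions (grey diamonds) at 0 min, 12.8% against 24.3%, and above them in the 6 LPS libraries.

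The share of the constitutive regions and of the lost regions was lower with LPS, while regions gained only at 240 min moved in the members' direction. Regions in all 8 H4ac lists were touched by Pol II in 48.8% of cases at rest and in 20.1% to 37.3% with LPS. The gap between members and these constitutive regions was thus smaller after LPS, though members stayed below them in each library. With LPS the constitutive share changed by -16.9 points on average and the members' share by 8.82. At 360 min the members' share was 12.5%, against 12.8% at rest. Regions gained only at 240 min (251 regions) had shares of 10.8% at rest and 14.3% on average with LPS. Their excess over all joined regions was -13.6 points at rest and -1.91 on average with LPS, 11.7 points higher, against 16.9 for the members. It was above 0 at 240 and 360 min and below 0 at 60 and 120 min. The difference between these sets was not tested. Regions lost at every LPS time (1812 regions) had 10.7% at rest and 4.13% on average with LPS.

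Pol II was called gained at a region if at least 4 of 6 LPS lists and not the unstimulated list touched it, and this held for 3.13% of all joined regions. Among members it held for 48 (8.30%). Pol II was called lost if the unstimulated list and no LPS list touched the region, which held for 7.06% of all joined regions and for 8 members (1.38%). Regions in all 8 H4ac lists had 4.68% gained and 9.91% lost. Of the 48 members with Pol II gained, 36 and 38 were listed at 60 min in letters A and B, 38 at 120 min, 47 and 48 at 240 min, and 22 at 360 min. Lists at 240 min held nearly all of them, and the 360 min list fewer than any other. Without the 360 min library, where 3 of 5 lists are asked for, 73 members were called gained. No share over all joined regions is given here for that changed rule.

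**Figure D3:**
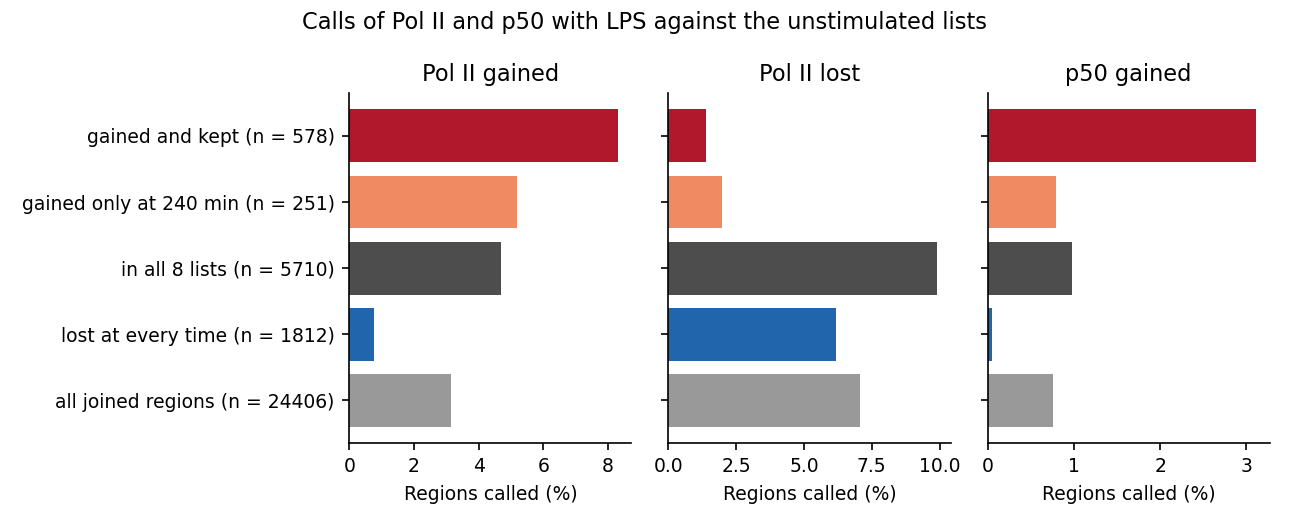
Percent of regions (horizontal axes) called gained or lost for Pol II and gained for p50, in the members and 4 other sets of joined regions (vertical axis, with the number of regions). Members have the highest percent for both gains, 8.30% for Pol II and 3.11% for p50, and the lowest for Pol II lost, 1.38%.

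A gain of Pol II was still the exception. No Pol II list touched 326 members (56.4%, against 60.5% of all joined regions), and at least 1 LPS list but not the unstimulated list touched 178 (30.8%, against 15.2%). Pol II was listed both at rest and with LPS at 66 members (11.4%, against 17.3%), and in all 7 lists at 28 (4.84%, against 4.08%). Both 60 min lists touched 99 members and both 240 min lists 118, with 65 members in all 4. Of the 99, 43 were also listed at 360 min, and of the 118, 61 were. For these counts over several lists together, no share over all joined regions is given here.

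The 2 kinds of member set by the wide unstimulated regions differed in Pol II. Among the 203 under an unstimulated region of 10 to 100 kb, Pol II touched 32.0% at rest and 34.8% on average with LPS. Among the 375 outside such regions it touched 2.40% at rest. In those 375 it touched 12.3% and 16.5% at 60 min in letters A and B, 13.1% at 120 min, 16.0% and 22.1% at 240 min, and 6.93% at 360 min. All 6 LPS libraries were above the unstimulated one in these 375. Their median width was 3610 bp, against 5470 bp for the 203, and 28 of the 48 Pol II gains lay among them. The 375 were themselves chosen by absence from the wide unstimulated H4ac regions, after the values had been seen. No share over joined regions likewise outside such regions is given here, so these shares have no background.

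The p50 subunit was listed at more members than joined regions in general in all 7 libraries, before and after LPS. Unstimulated lists touched 9 members in letter A, 13 in letter C and 5 in letter D, or 1.56%, 2.25% and 0.865%. After 60 min of LPS the lists touched 67 in letter A, 44 in B, 52 in C and 11 in D, or 11.6%, 7.61%, 9.00% and 1.90%. Letters A, B and C with LPS stood well above the unstimulated ones, and the groups overlapped, since letter D with LPS was below letter C at rest. The LPS list of letter D held 324 regions, against 1118 to 1378 in the other LPS lists and 354 to 447 in the unstimulated ones.

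The mean p50 share of members was 7.53% ± 4.10 with LPS (SD, n = 4) and 1.56% ± 0.692 without (SD, n = 3). The difference of 5.97 points did not pass the exact two-sided permutation test over libraries (p = 0.114, where the smallest possible is 0.0571). Over all joined regions the shares were 2.38% ± 1.24 with LPS and 0.676% ± 0.245 without. The members' excess over them was 4.26 points higher with LPS, with an exact two-sided permutation p of 0.114. With lists cut to equal length by score, an alternative chosen after seeing the data, it was 1.30 points higher (exact two-sided permutation p = 0.0571, the smallest possible). In the 375 members outside unstimulated regions up to 100 kb, also chosen afterwards, the share was 6.38 points higher with LPS. Their excess over all joined regions was 4.67 points higher (exact two-sided permutation p = 0.171 for each). Over the alternatives run, the exact p of the share and the excess lay between 0.0571 and 0.571. As a ratio to all joined regions, a measure added after the values were seen, the members' share was 3.20 ± 0.419 with LPS and 2.29 ± 0.447 without. The groups did not overlap on this ratio (exact two-sided permutation p = 0.0571, the smallest possible). Adjusted over the 3 measures by the Benjamini-Hochberg method, each permutation p was 0.114.

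**Figure D4:**
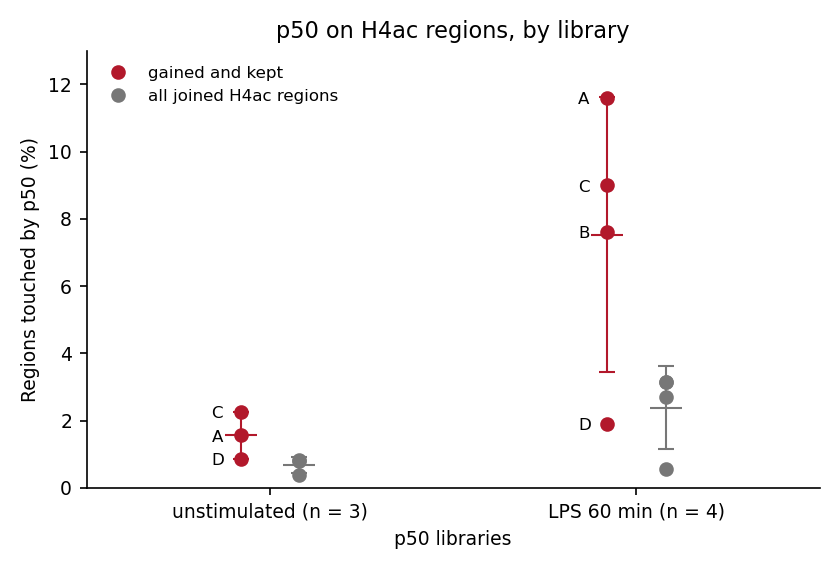
Percent of members (red) and of all joined H4ac regions (grey) touched by p50 (vertical axis) in 3 unstimulated and 4 LPS libraries (horizontal axis). Points are libraries, with the letter beside each member value, and bars give the mean and SD; letters A, B and C with LPS lie at 7.61% to 11.6% and letter D at 1.90%.

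In the central 500 bp, p50 touched 3.29%, 2.08%, 2.08% and 0.173% of members with LPS in letters A to D, against 0.975%, 0.869%, 0.983% and 0.168% of all joined regions. At rest it touched 0.173% to 0.865% of members. There the share was 1.38 points higher with LPS and the excess 0.887, and with H4ac regions up to 1 kb they were 0.985 and 0.423 points higher. Midpoints of p50 regions that lay inside members were counted by whether they fell in the middle 50% of the member's width. In the 4 LPS lists 53 of 71 did in letter A (74.6%), 38 of 52 in B (73.1%), 43 of 62 in C (69.4%) and 8 of 11 in D (72.7%), and inside all joined regions 56.9% to 59.7% did. The LPS p50 regions thus lay in the middle of members more often than in the middle of joined regions in general. This describes regions, with no test. So did ATF3 regions in letters A (63.9% against 59.1%), B and C (69.2% against 51.3%), and p65 regions in each LPS list. At rest, p50 regions did so in letter C (71.4% against 56.7%) and not in letters A and D, with 5 to 14 midpoints inside members. The central position was thus not seen for p50 alone, and the part of member width was not tested.

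With p50 called gained where at least 3 of 4 LPS lists and no unstimulated list touched a region, 0.758% of all joined regions were called. Among members 18 were (3.11%), against 0.981% of regions in all 8 H4ac lists. Of the 18, 13 lay among the 375 members outside unstimulated regions up to 100 kb, with no share over joined regions likewise outside given here. In the central 500 bp, 1 member was called. The counts at members rose to 39 without the LPS library of letter D and to 28 without that of letter B. Both of those counts ask for 2 of 3 lists instead of 3 of 4. For the central window and for 2 of 3 lists, no share over all joined regions is given here.

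By number of LPS lists, p50 touched 491 members in none, 37 in 1, 22 in 2, 19 in 3 and 9 in all 4. At least 2 lists touched 50 members (8.65%, against 2.67% of all joined regions). Of the 14 members with p50 at rest, 13 also had it in an LPS list. Among the 50, both 60 min H4ac lists held 37 (74.0%), against 62.1% of the other 528, and all 6 H4ac lists held 30, or 60.0% against 36.7%. Pol II was called gained at 5 of the 50 (10.0%) and at 43 of the 528 (8.14%). No Pol II list touched 25 of the 50 (50.0%) and 57.0% of the 528. Over all joined regions, 652 had p50 in at least 2 LPS lists. Among these 652, Pol II was called gained at 8.44%, no Pol II list touched 37.7%, and all 6 LPS H4ac lists held 43.9%. Pol II was listed at rest at 35.1% of the 652 and at 10.0% of the 50. The 50 were wider than the 528, with a median of 5765 bp against 3915 bp.

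At least 3 LPS lists of p50 touched 28 members, and no Pol II list touched 11 of these. Of the 9 in all 4 lists, 4 had no Pol II, among them chr14:64516931-64531890, where no unstimulated p50 list was present either. That region lay under an unstimulated H4ac region of 10 to 100 kb, and its LPS percentiles ran from 9.28 to 88.2. For these counts by number of p50 lists, no share over all joined regions is given here. The next 3 loci were picked, after their values were seen, as ones with Pol II listed with LPS and not at rest. At chr9:5307841-5312430 all 7 p50 lists touched the region, before and after LPS, while Pol II was listed in all 6 LPS libraries and not at rest. At chr10:37034521-37049830, part of the group of 4, p50 was again in all 7 lists and Pol II in 5 of 6 LPS lists and not at rest. At chr2:127158771-127164920 p50 was listed with LPS in letters A, B and C and in no unstimulated list, and Pol II in all 6 LPS lists and not at rest. The H4ac percentile of this last region was 74.3 and 76.6 at 60 min, 70.9 and 69.6 at 120 min, and 82.2 and 58.3 at 240 min. At the first pair, p50 was thus listed at rest where neither unstimulated list held an H4ac region up to 10 kb.

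Members in all 6 LPS H4ac lists were touched more often by Pol II and p50 than members in 4, in each of the 6 LPS Pol II and 4 LPS p50 libraries and in the unstimulated ones. Between 4 and 5 lists there was no such order, and the share was lower at 5 in 2 LPS Pol II libraries, in 2 LPS p50 libraries and in the unstimulated Pol II library. The mean Pol II share over the 6 LPS lists was 17.0% at members in 4 H4ac lists, 19.1% in 5 and 26.9% in 6. The unstimulated share was 12.9%, 10.4% and 15.2%. Pol II was called gained at 5, 19 and 24 of them, or 3.79%, 8.56% and 10.7%. For p50 the mean LPS share was 5.49%, 5.74% and 10.5%. Other targets did not all follow. For ATF3 the share at 4 and at 6 lists was 18.9% and 28.6% in letter A, 0% and 0.446% in B, and 1.52% and 0.893% in C. For H3K27me3 it was lower at 6 than at 4 in each of the 5 libraries, as at 480 min (10.6% and 6.25%). For p65 it was lower in letter X at 60 min (1.52% and 0.893%) and higher in letter C at 120 min (0.758% and 3.57%). The part of width and score in these differences was not tested.

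**Figure D5:**
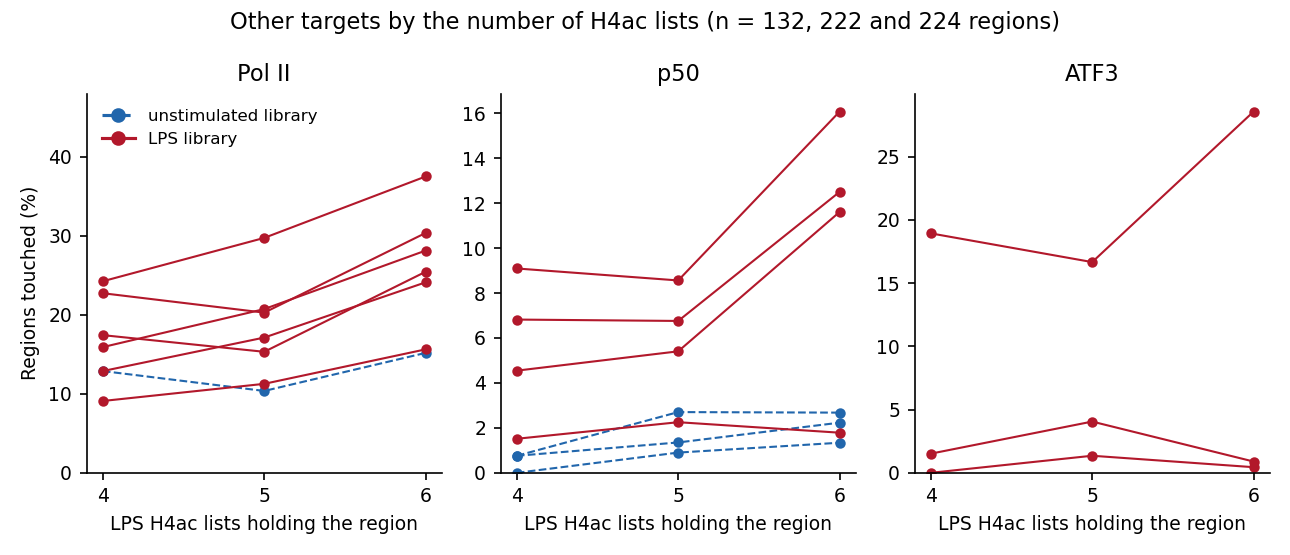
Percent of members touched (vertical axes) by Pol II, p50 and ATF3 in each library, for members held by 4, 5 or 6 LPS H4ac lists (horizontal axes). Each line is 1 library, solid red with LPS and dashed blue without; in the 6 LPS Pol II libraries the highest value is at 6 lists.

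The p65 subunit was listed at few members. The library of letter X touched none of 578 at rest, 6 (1.04%) at 60 min and 5 (0.865%) at 120 min, against 0.553%, 1.57% and 1.33% of all joined regions. Members were below all joined regions in each of these 3 libraries. Letter A at 60 min touched 2 members (0.346%, against 0.348%), and letter C at 120 min touched 16 (2.77%, against 0.692%). The libraries at 120 min thus differed on whether members exceeded the joined regions.

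ATF3, profiled only at 240 min, was listed at 126 members in letter A, 4 in letter B and 13 in letter C. These are 21.8%, 0.692% and 2.25% of members, against 9.72%, 0.467% and 0.967% of all joined regions. Members were above all joined regions in each library, while the libraries differed far more from each other. The central 500 bp was touched by letter A in 5.19% of members against 3.38%, by letter C in 0.346% against 0.242%, and by letter B in none against 0.148%. The 126 members touched by letter A had a median width of 6195 bp. Of them 12 had p50 in at least 2 LPS lists (9.52%), close to the 8.65% of all members. Over all joined regions, those touched by ATF3 of letter A had p50 in at least 2 LPS lists in 7.37% of cases, against 2.67% of all.

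H3K27me3 was listed at few members, at rest and at each LPS time. It touched 28 members at rest (4.84%), 24 at 120 min (4.15%), 24 at 240 min (4.15%), 41 at 480 min (7.09%) and 37 after 60 min of LPS and the 7 h delay (6.40%). Over all joined regions the shares were 3.94%, 2.52%, 2.62%, 3.98% and 3.77%, so members were above them in each library. In the central 500 bp the members' shares were 3.63%, 3.63%, 3.46%, 5.54% and 5.19%, against 3.39%, 2.22%, 2.25%, 3.45% and 3.28%. H3K27me3 called lost, listed at rest and in no LPS list, held for 0.869% of all joined regions and for 0 of 578 members. It held for 3 members when the delayed library was left out and for 1 without the 240 or the 480 min library, and there was 1 library a time, so no test was run. For the counts with a library left out, no share over all joined regions is given here. H3K27me3 called gained, in all 4 LPS lists and not at rest, held for 0.0492% of all joined regions and for 1 member.

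At least 1 H3K27me3 list touched 62 members (10.7%, against 7.04% of all joined regions), and all 5 touched 7. For the 7, no share over all joined regions is given here. Pol II was listed at rest at 1 of the 62 and was called gained at 9 of them (14.5%). Among members without H3K27me3 it was called gained at 7.56%. No Pol II list touched 44 of the 62 (71.0%), against 54.7% of the members without H3K27me3, and the mean LPS Pol II share was 16.4% against 22.3%. Over all joined regions Pol II was called gained at 2.50% of those with H3K27me3 and at 3.18% of those without, and no Pol II list touched 78.5% and 59.1%. The region at chr1:154422851-154430330 is one of the 62, with H3K27me3 listed at rest, at 480 min and after the delay. In these bulk lists, both marks on the same nucleosomes and the marks in different cells cannot be told apart.

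No list of any other target touched 193 members (33.4%), against 48.2% of all joined regions. For these members H4ac was the only target listed.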

How the data were processed

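The members and every list here were chosen with earlier results of these data known. Each library had 1 deposited list of regions, on mm9 per the submitters' processing notes, and the score of each region is the authors' own, as deposited, with a scale that is not stated. It was used only for ranks inside 1 list, and scores were never compared between lists. Those ranks were compared and averaged between lists that differ in length. A shift of rank between times therefore need not be a change at the member. Not given in the sources used here are the aligner and the caller. Depth is unknown. Each list belonged to 1 library and was treated as called per library.

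Regions up to 10 kb (H4ac, p50, p65, ATF3) or 100 kb (Pol II, H3K27me3) were used, because the lists are nested. A list held or touched a joined region where they overlapped by at least 1 bp. Ranks are percentiles with ties averaged. Shares of regions were compared over libraries by exact two-sided permutation of the mean difference, never over regions. Coordinates are 1-based. Members named by position came from 5 orders set by rule: best mean percentile in all 6 LPS lists, most p50 LPS lists, Pol II gained, widest, and most other lists, and not every member so ranked is printed. The joining and tests were checked on simulated data. Alternatives varied widths, overlap, scores, numbers of lists and libraries. Genes, cell type markers, motifs and sequences were not analysed here. Python 3.11.15, pandas 2.3.3, numpy 2.4.6 and scipy 1.17.1 were used.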

Additional observations from a re-analysis of the deposited data

How the results depend on the processing

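The number of members depended on the widths read: 685 with H4ac regions up to 1 kb, 160 up to 100 kb and 25 with all widths. It was 224 when all 6 LPS lists were required, which is the same as a replicate block on both letters, and 375 when unstimulated regions up to 100 kb also excluded a region. Leaving out 1 library gave 427 to 1579, the highest without the unstimulated library of letter A. Leaving out an LPS library also lowered the number of LPS lists asked for, while leaving out an unstimulated one did not.

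The Pol II difference reversed with H4ac regions up to 1 kb, to -16.8 points for the share and -9.45 for the excess. The excess was 11.2 points with at least 50% of the touching region inside, 9.48 with the better-scored 50% of each list and 6.49 with lists of equal length, the last chosen after seeing the data. With touching regions up to 1 kb the share was 0.980 and the excess 7.26. Leaving out 1 library gave 6.85 to 10.7 for the share and 15.7 to 17.6 for the excess. Pol II gained was 24 of 224 with all 6 H4ac lists, 28 of 375 in members outside unstimulated regions up to 100 kb (also chosen afterwards), and 54 to 73 without 1 library, the highest without 360 min.

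The p50 differences stayed above 0 in the alternatives run. Leaving out 1 library gave 4.61 to 7.84 for the share and 3.16 to 5.53 for the excess. They were smallest with H4ac regions up to 1 kb (0.985 and 0.423) and in the central 500 bp (1.38 and 0.887), and the excess was 1.30 with lists of equal length, chosen afterwards. P50 gained was 1 in the central 500 bp and 18 to 39 without 1 library. H3K27me3 lost was 0 to 3 without 1 library, the 3 without the delayed one. For these counts, and for Pol II gained without 1 library, no share over all joined regions is given here.

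Nothing says that a letter or date marks one culture, and same-letter correlations of p50 deviations were 0.0984, 0.0191 and 0.277 for A, C and D, so the letters were not taken as pairs. The p50 share was higher with LPS within each of these letters. With the replicate block on those letters the p50 share differed by 5.94 points and the excess by 4.34 (exact sign-flip p = 0.25, the smallest possible). Pol II in letter A alone differed by 5.58 and 15.3 points. A block by letter gave 629 members for A and 689 for B. Depth, which is unknown, limits every absence from a list.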
